A study of Mus musculus with 144 samples.

Results

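The colony-stimulating factor and cytokine receptors described here are 10 mouse genes: Csf1r, Csf2ra, Csf2rb, Csf3r, Tgfbr1, Tgfbr2, Il10ra, Ifngr1, Tnfrsf1a and Tnfrsf1b. They were chosen by name and are 10 of the 55364 genes in the deposited expression table. Each was found once, with the same gene identifier and coordinates in GENCODE release M21 on GRCm38.

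RNA was sequenced from individually sorted retinal cells labelled as microglia, from Iba1-EGFP mice, whose Iba1-expressing cells are marked by a green fluorescent protein. Mice had been given PBS (ages 10 to 14 weeks), ripasudil at 1 mg/kg (14 weeks) or ripasudil at 10 mg/kg (12 weeks). Ripasudil is a small-molecule kinase inhibitor. By its title the series is about GPR84, TNF and IL-1α after injury of the optic nerve, but whether these eyes were injured is not in the labels. Each group had 48 cells, 16 on each of 3 plates. A cell was kept if 1000 genes or more reached an FPKM of 1, which left 46 PBS cells, 47 cells of 1 mg/kg and 47 cells of 10 mg/kg.

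Because the labels do not tie cells to animals, each group counts as 1 sample, its differences have no replicate check and no p-value is given. Dose, age and block of wells cannot be told apart. Assigned reads, inferred from FPKM and gene length, ran from 30204 to 4668732 per kept cell. The median number of genes detected per cell was 3143 in PBS, 2418 at 1 mg/kg and 2264 at 10 mg/kg. At least 3 of 10 microglial markers were present in all 140 cells. At least 3 of 10 neutrophil markers were present in 16 cells: S100a8 reached an FPKM of 1 in 42 cells, S100a9 in 36 and Retnlg in 18, while Camp and Ltf reached it in none. Of the T cell markers, Cd3e, Cd3d and Trac were below it in every cell.

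These receptors carry growth, restraint and alarm signals of microglia. Csf1r is the tyrosine kinase receptor for CSF1 and IL-34, on which microglial survival depends. Csf2ra is the ligand-binding chain of the GM-CSF receptor and Csf2rb its signalling beta chain, which IL-3 and IL-5 receptors share. Csf3r is the G-CSF receptor, best known from neutrophils. Tgfbr2 binds TGF-β and recruits Tgfbr1, the kinase that phosphorylates SMAD proteins, a signal needed for the mature microglial state. Il10ra pairs with Il10rb to receive IL-10, and Ifngr1 pairs with Ifngr2 to receive interferon gamma. Tnfrsf1a (TNFR1) carries a death domain, and Tnfrsf1b (TNFR2) lacks one.

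Csf2rb has a close neighbour, Csf2rb2, which encodes the IL-3-specific beta chain of the mouse. Csf2rb lies on GRCm38 chr15:78325752-78353847, plus strand, and Csf2rb2 at chr15:78282507-78305721, minus strand. Their coding sequences were 95.2% identical over the aligned bases outside gaps. Of all windows of 50 bases in the Csf2rb coding sequence, 26.2% also occurred in Csf2rb2, and the longest identical run was 242 bases. Bases 2053 to 2112 of each coding sequence are given to show how alike the pair is, with the bases that differ in capitals.
Csf2rb: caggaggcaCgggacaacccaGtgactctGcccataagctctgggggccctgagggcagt
Csf2rb2: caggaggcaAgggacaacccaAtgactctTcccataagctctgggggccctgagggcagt
In these 60 bases 3 differ, so reads from such a stretch may be divided between the genes, and values of Csf2rb are uncertain for that reason. Csf2rb2 itself was at an FPKM of 1 or more in 8 PBS cells, 2 cells of 1 mg/kg and 6 cells of 10 mg/kg, and 8 cells held both genes.

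Promoters of 3 receptors are shown because the results turn on their values: Csf2ra and Ifngr1, which were lower at 10 mg/kg than in PBS, and Csf3r, which varied with Csf2ra between cells. They are RefSeq sequences on GRCm38.p6, from 250 bases before to 50 bases after the start, read 5′ to 3′ on the gene's strand, at chr19:61228369-61228668 (minus), chr10:19591699-19591998 (plus) and chr4:126024409-126024708 (plus). Capitals mark GAGGAA, the core of the motif of PU.1, the myeloid transcription factor encoded by Spi1.
Csf2ra: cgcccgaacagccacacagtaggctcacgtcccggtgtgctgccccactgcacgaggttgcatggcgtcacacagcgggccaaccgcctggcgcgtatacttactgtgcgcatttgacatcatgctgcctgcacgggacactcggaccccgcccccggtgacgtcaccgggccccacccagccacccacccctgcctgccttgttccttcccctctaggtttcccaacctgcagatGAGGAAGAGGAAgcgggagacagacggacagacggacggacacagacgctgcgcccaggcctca
Ifngr1: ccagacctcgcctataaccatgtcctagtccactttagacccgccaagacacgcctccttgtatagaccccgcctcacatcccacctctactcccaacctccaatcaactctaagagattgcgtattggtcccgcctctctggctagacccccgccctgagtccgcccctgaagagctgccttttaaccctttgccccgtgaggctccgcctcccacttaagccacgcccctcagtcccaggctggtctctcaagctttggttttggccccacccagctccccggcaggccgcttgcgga
Csf3r: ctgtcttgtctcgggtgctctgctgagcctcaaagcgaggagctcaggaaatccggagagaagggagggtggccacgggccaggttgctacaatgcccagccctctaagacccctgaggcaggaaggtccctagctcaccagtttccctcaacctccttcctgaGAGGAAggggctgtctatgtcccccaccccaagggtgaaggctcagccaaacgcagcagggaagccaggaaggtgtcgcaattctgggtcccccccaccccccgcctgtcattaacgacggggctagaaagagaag
The Csf2ra promoter held GAGGAA 2 times, at positions -14 and -8 from the start, and the Csf3r promoter held it once, at -86. The table of promoters held 8 promoters of 7 of the 10 receptors, and GAGGAA, searched on both strands, occurred in 5 of these 8 and in 28.3% of all 32851 promoters. The longer GAGGAAGT, which contains it, was in none of the 8 and in 3.2% of all promoters. The AP-1 motif TGANTCA was in none of the 8 and in 7.81% of all, and the STAT motif TTCNNNGAA was in 2 of the 8 and in 8.30% of all. A match describes these letters in this window and is not evidence of binding.

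Csf1r was by far the most abundant of the receptors and the others were each found in fewer than 50% of the 140 cells, though 5 of them were found in more than 50% of the PBS cells. FPKM is scaled to gene length, so levels can be set beside each other. As the mean of log2(FPKM + 1) over all 140 cells, Csf1r stood at 8.21 ± 2.99 (SD over cells), followed by Ifngr1 at 2.97 ± 3.32 and Csf2ra at 2.40 ± 2.90. Tgfbr1 (2.33), Tgfbr2 (2.30), Il10ra (2.15), Csf3r (1.96), Tnfrsf1a (1.82), Tnfrsf1b (1.44) and Csf2rb (0.94) came next. The distance from Csf1r to Ifngr1 exceeded the SD of either, while all neighbours below Ifngr1 lay closer together than their SDs. Csf1r led in each group. Ifngr1 was next in PBS and at 10 mg/kg, and Tgfbr1 was next at 1 mg/kg.

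**Figure D1:**
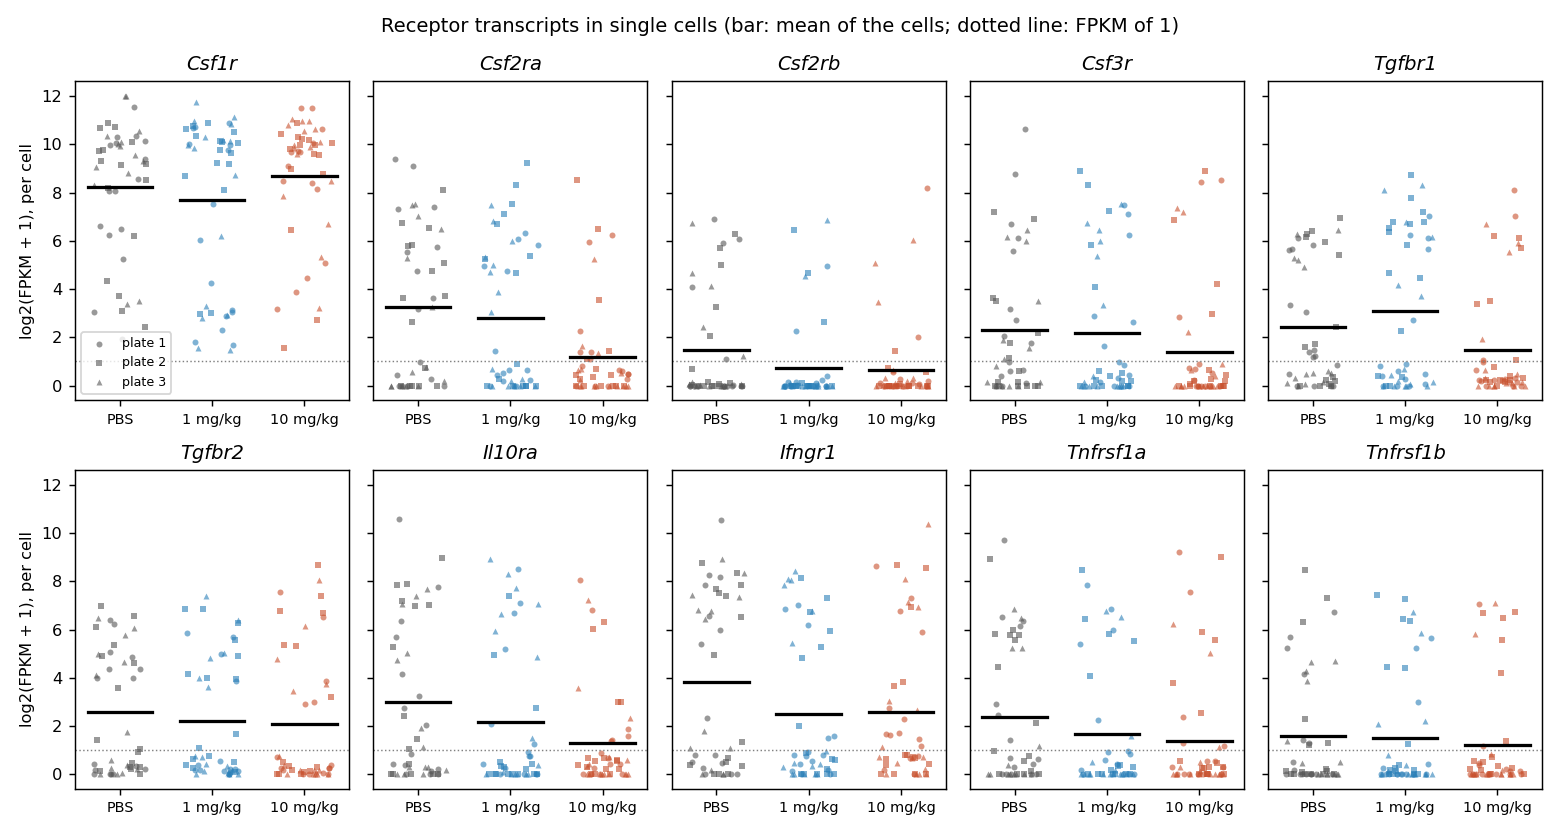
Each point is a cell: log2(FPKM + 1) of the named receptor (vertical axis) in PBS, 1 mg/kg and 10 mg/kg cells, with plates by marker shape and a bar at the mean. Csf1r forms a high and a low band of cells, and the other receptors form a band near 0 and a band of expressing cells.

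Below Csf1r, the values were close to on or off in single cells. At the median depth, an FPKM of 1 corresponded to between 4.18 reads (Tnfrsf1a) and 13.2 reads (Tgfbr2). In the shallowest kept cell it stood for 0.0783 reads (Tnfrsf1a) to 0.247 reads (Tgfbr2), so there 1 read was enough to reach it. In the deepest it stood for 12.1 to 38.2 reads. Cells above 0 but below an FPKM of 1 held a median of 1 or 2 reads of a receptor. Cells at 1 or more held medians of 221 reads (Csf3r) to 804 reads (Tgfbr1) for the receptors other than Csf1r. A receptor is called detected in a cell that reached an FPKM of 1. The share of detecting cells ran from 20% for Csf2rb to 48.6% for Ifngr1, and was 100% for Csf1r. Intervals on shares are exact Clopper-Pearson 95% intervals and cover counting error only, since each group counts as 1 sample. A second share was the expected percent of cells keeping at least 1 read when reads were thinned to 300000 per cell. It covered the 131 cells with 300000 reads or more. As it asks for 1 read and not an FPKM of 1, it can exceed the share of detecting cells. By this rule, 27 shares stayed within the intervals of the detection shares and 3 rose above them. Those were Tgfbr1 at the high dose (48.9%) and Tgfbr2 at the low dose (63.8%) and the high dose (55.0%). No molecular identifiers were named.

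**Figure D2:**
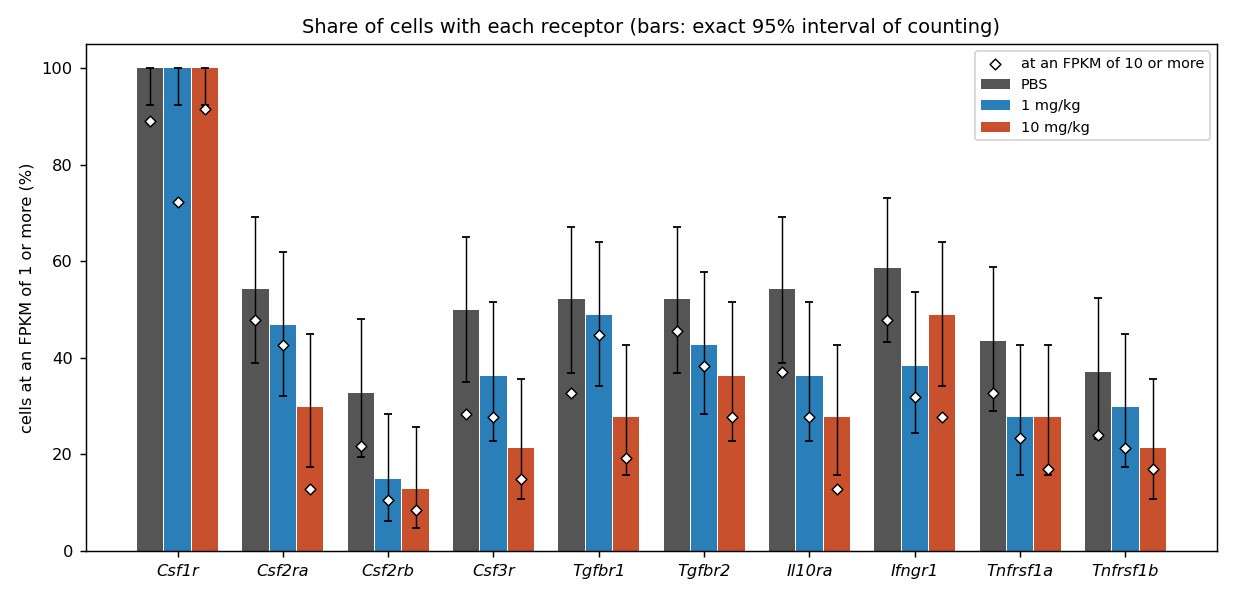
Bars give the percent of cells in which each receptor was detected in PBS, 1 mg/kg and 10 mg/kg cells, with exact 95% intervals; diamonds give the percent at 10 or more. Csf1r is at 100% in each group, and for Csf2ra the diamond at 10 mg/kg stands at 12.8%, against 47.8% in PBS.

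Csf1r (chr18:61100598-61132149, plus strand) was not lower at the high dose. Its FPKM had a lowest, median and highest value of 2.83, 607 and 4172 in PBS, 1.76, 879 and 3443 at 1 mg/kg, and 1.96, 852 and 2906 at 10 mg/kg. All 3 ranges overlapped almost wholly, and the PBS median was the lowest. The mean log2 level at 10 mg/kg was 8.70 ± 2.58, against 8.24 ± 2.77 in PBS (SD over cells), a difference of 0.46 with 0.35, 0.85 and 0.06 on plates 1, 2 and 3 (the order of plate values from here on). At 1 mg/kg it was 7.68 ± 3.51, against 8.24 in PBS, a difference of -0.56 that changed sign between plates (-1.56, 1.13 and -1.43) and was -1.44 without plate 2. The high dose exceeded the low dose by 1.02, with 1.92 and 1.49 on plates 1 and 3 and -0.28 on plate 2.

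The cells fell into bands of Csf1r. Below an FPKM of 10 were 5 of 46 PBS cells (10.9%, interval 3.62 to 23.6%), 13 of 47 cells at 1 mg/kg (27.7%, 15.6 to 42.6%) and 4 of 47 at 10 mg/kg (8.51%, 2.37 to 20.4%). These 22 cells held a median of 33.5 Csf1r reads each, compared with 9006.5 in the other 118. They also had fewer detected genes, a median of 1583.5 against 2790.5. Other microglial genes were at lower mean log2 levels in them as well: 2.18 against 5.24 for the purinergic receptor P2ry12, 2.81 against 6.22 for Tmem119 and 4.20 against 7.18 for Cx3cr1. Tyrobp, the adaptor of several myeloid receptors, stood at 10.9 against 11.4. On plate 1 there were 6 cells of this kind at 1 mg/kg, on plate 2 there were 2 and on plate 3 there were 5. Without plate 2 the share at 1 mg/kg was 35.5%, and without plate 1 it was 21.9%. Csf1r overlaps the miRNA gene Mir6983 on the same strand, which was detected in 94 cells, and Hmgxb3 on the opposite strand, which was detected in 12, and the strand used in counting was not given in the sources used here.

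Csf2ra (chr19:61223957-61228429, minus strand) showed the greatest difference in mean log2(FPKM + 1) of the 10 receptors between the high dose and PBS. By the log2 ratio of mean FPKM, Il10ra was further apart (-2.41, against -2.12 for Csf2ra), and by share of cells Csf3r and Il10ra were (-28.7 and -26.7 percentage points, against -24.6 for Csf2ra). Its lowest, median and highest FPKM were 0, 8.30 and 663 in PBS, 0, 0.59 and 607 at 1 mg/kg, and 0, 0.35 and 370 at 10 mg/kg. The high dose was low both in the share of cells with Csf2ra and in how much those cells held. It was detected in 25 of 46 PBS cells (54.3%, 39 to 69.1%), in 22 of 47 cells at 1 mg/kg (46.8%, 32.1 to 61.9%) and in 14 of 47 at 10 mg/kg (29.8%, 17.3 to 44.9%). Among the detecting cells the median FPKM was 55.0 in PBS, 48.6 at 1 mg/kg and 3.0 at 10 mg/kg. An FPKM of 10 or more was reached in 22 PBS cells, 20 cells of 1 mg/kg and 6 of 10 mg/kg. The mean log2 level at 10 mg/kg was 1.18 ± 2.02, against 3.26 ± 3.16 in PBS, a difference of -2.08 (plates -2.16, -1.89 and -2.11). The difference at 10 mg/kg from 1 mg/kg was -1.60 (-0.69, -2.00 and -2.07). Between 1 mg/kg (2.78 ± 3.03) and PBS it was -0.48 and came almost wholly from plate 1 (-1.48, 0.11 and -0.04).

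The mean Csf2ra level was also lower at 10 mg/kg within bands of detected genes, while its share of cells was lower in the middle band alone. Such bands of detected genes were chosen after the data were seen. In cells with 4000 genes or more, the mean log2 level was 2.74 in 7 cells of 10 mg/kg, against 4.44 in 14 PBS cells. With 2000 to 4000 genes it was 1.42 in 19 cells of 10 mg/kg, against 3.24 in 24 PBS cells. With 1000 to 2000 genes it was 0.44 in 21 cells of 10 mg/kg, against 1.26 in 8 PBS cells, of which 1 detected it. The shares in these bands, from most genes to fewest, were 85.7%, 26.3% and 14.3% at 10 mg/kg, against 85.7%, 50% and 12.5% in PBS. With detected genes and plate as terms in a linear fit, the difference was -1.37.

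Csf2rb, the partner chain, was the least often detected. Its lowest, median and highest FPKM were 0, 0.03 and 120 in PBS, 0, 0 and 117 at 1 mg/kg, and 0, 0 and 288 at 10 mg/kg. It was detected in 15 of 46 PBS cells (32.6%, 19.5 to 48%), in 7 of 47 cells at 1 mg/kg (14.9%, 6.20 to 28.3%) and in 6 of 47 at 10 mg/kg (12.8%, 4.83 to 25.7%). The miRNA gene Mir7676-2, which lies within Csf2rb on the same strand, was detected in 10 cells. Csf2rb met the limit for the comparison of all genes, detection in 25% of the cells of any group, only through PBS. Its difference was -0.81 between 10 mg/kg and PBS (-0.74, -1.29 and -0.38) and -0.74 between 1 mg/kg and PBS (-0.96, -0.60 and -0.67), negative on every plate. Cells that held both chains of the GM-CSF receptor numbered 10 in PBS, 6 at 1 mg/kg and 3 at 10 mg/kg, so most Csf2ra-detecting cells of each group were without detected Csf2rb.

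Csf3r was detected in 23 of 46 PBS cells (50%, 34.9 to 65.1%), in 17 of 47 cells at 1 mg/kg (36.2%, 22.7 to 51.5%) and in 10 of 47 at 10 mg/kg (21.3%, 10.7 to 35.7%). Its median FPKM among detecting cells ran the other way, at 10.5 in PBS, 73.9 at 1 mg/kg and 132 at 10 mg/kg. An FPKM of 10 or more was reached in 13 PBS cells, 13 cells of 1 mg/kg and 7 of 10 mg/kg. The low dose thus had fewer detecting cells than PBS only between 1 and 10. Cells between 1 and 10 numbered 10 in PBS, 4 at 1 mg/kg and 3 at 10 mg/kg. Their assigned reads ran from 34021 to 1273403, from 519568 to 3043429 and from 90617 to 918792 in that order. For Csf3r an FPKM of 1 stood for 5.83 reads at the median depth and 0.109 in the shallowest kept cell. Values between 1 and 10 can thus rest on few reads. The part of depth in the PBS share and in its low median was not tested. On plate 1 the median among detecting cells was 40.2 at 1 mg/kg, against 46.7 in PBS, so the order of these medians was not the same on each plate. The difference in mean log2 level was -0.88 between 10 mg/kg and PBS (-1.62, -0.16 and -0.82) and -0.09 between 1 mg/kg and PBS (-1.09, 0.58 and 0.27). With detected genes and plate in the fit, the difference between 10 mg/kg and PBS was -0.04.

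Part of the signal of Csf3r, Csf2rb, Tnfrsf1a and Csf2ra stood beside neutrophil transcripts. The summed FPKM of the neutrophil markers exceeded 1000 in 3 cells, 1 in each group, and the next highest sum was 391. It was 82860 in the PBS cell (plate 1), 128112 in the cell of 1 mg/kg (plate 2) and 82038 in the cell of 10 mg/kg (plate 3). These cells held S100a8 and S100a9, calcium-binding proteins abundant in neutrophils, at 6318 or more, and also Retnlg, Cxcr2 and Mmp8. The other markers of the list were not in all 3 cells. Ly6g was at 125 and Ngp at 16.1 in the cell of 1 mg/kg. Both were at 0 in the PBS cell and in the cell of 10 mg/kg. Mmp9 was at 637 in the PBS cell, 1347 in the cell of 1 mg/kg and 0 in that of 10 mg/kg. Camp and Ltf were at 0 in all 3. Csf3r was at 1617 in the PBS cell, 475 in the cell of 1 mg/kg and 147 in the cell of 10 mg/kg. Csf2rb was at 120, 86.6 and 65.4 in these cells in that order, and Csf1r at 88.6, 273 and 102. Tnfrsf1a was at 835, 350 and 32.1. Csf2ra was at 663 in the PBS cell, its PBS maximum, at 316 in the cell of 1 mg/kg and at 0 in that of 10 mg/kg. At least 3 neutrophil markers were present in 4 PBS cells, 6 cells of 1 mg/kg and 6 of 10 mg/kg, and the lowest sum in each group was 0. Over all cells, S100a8 was detected in 22 of 50 Csf3r-detecting cells (44%) and in 20 of 90 others (22.2%). The mean FPKM of Csf3r was 61.5 in PBS, 40.8 at 1 mg/kg and 35.2 at 10 mg/kg. Without the 3 cells it was 26.9 in PBS, 31.4 at 1 mg/kg and 32.8 at 10 mg/kg, so that the order of the groups turned round. The detecting cells then numbered 22 of 45 in PBS, 16 of 46 at 1 mg/kg and 9 of 46 at 10 mg/kg. The mean FPKM of Tnfrsf1a was 32.7 at 10 mg/kg, against 46.7 in PBS, and without the 3 cells it was 32.7 at 10 mg/kg, against 29.2 in PBS. The log2 differences counted as past the limit set below lay between -1.92 and -1.29 without the 3 cells, that of Csf2ra between 10 mg/kg and PBS being -1.92.

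**Figure D3:**
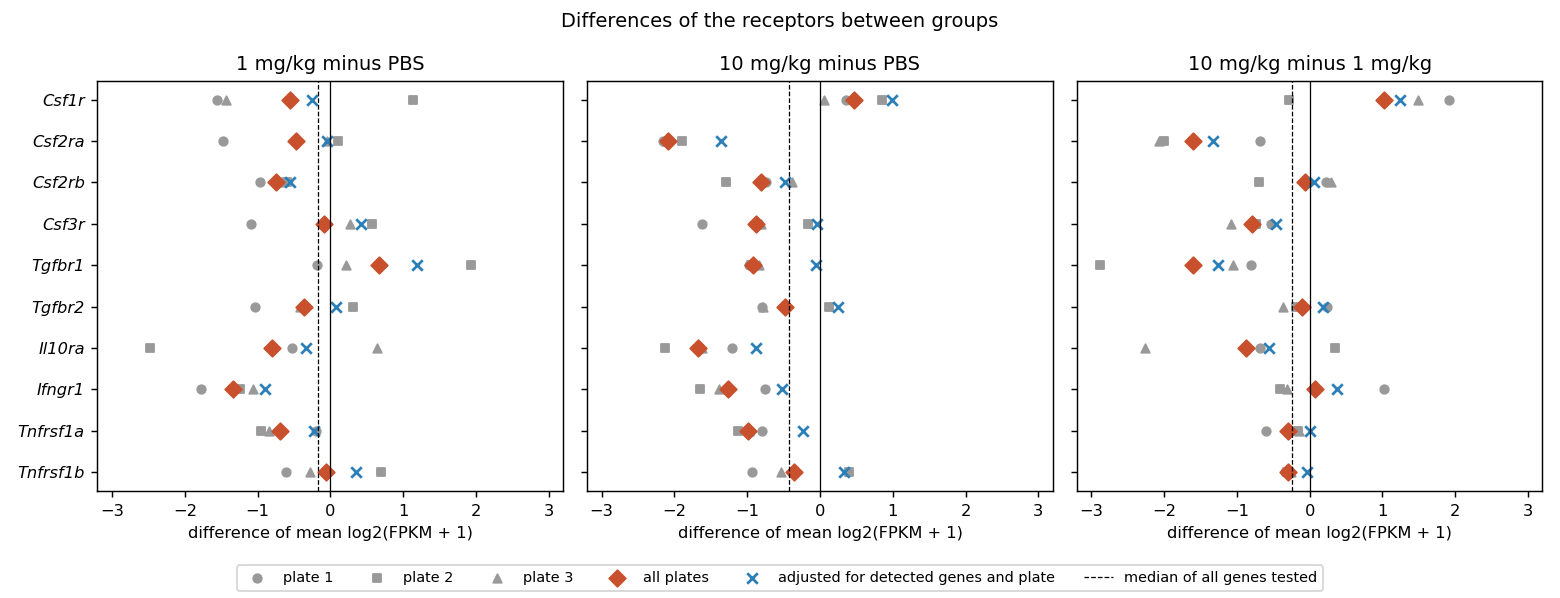
Differences in mean log2(FPKM + 1) for each receptor: 1 mg/kg minus PBS, 10 mg/kg minus PBS and 10 mg/kg minus 1 mg/kg, over all plates (diamonds), within plates (grey markers) and after a fit with detected genes and plate (crosses). The dashed line is the median of all 4806 genes compared, at -0.18, -0.43 and -0.24 in these panels; Csf2ra in the middle panel sits near -2 on all 3 plates.

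The TGF-β receptors differed from each other. Tgfbr1 (chr4:47353222-47414931, plus strand) had a lowest, median and highest FPKM of 0, 1.33 and 121 in PBS, 0, 0.88 and 425 at 1 mg/kg, and 0, 0.18 and 276 at 10 mg/kg. The group with the highest single cells was thus 1 mg/kg, while the ranges overlapped. It was detected in 24 of 46 PBS cells (52.2%, 36.9 to 67.1%), in 23 of 47 cells at 1 mg/kg (48.9%, 34.1 to 63.9%) and in 13 of 47 at 10 mg/kg (27.7%, 15.6 to 42.6%). Its mean log2 level was 1.49 ± 2.39 at 10 mg/kg, against 3.08 ± 3.16 at 1 mg/kg, a difference of -1.60 (-0.80, -2.88 and -1.05). The high dose differed from PBS (2.41 ± 2.59) by -0.92 with closely similar plates (-0.98, -0.95 and -0.83), but by -0.06 once detected genes and plate were in the fit. Between 1 mg/kg and PBS the difference was 0.67, which came from plate 2 (-0.18, 1.93 and 0.22), where 12 of 16 cells of 1 mg/kg detected it. Without plate 2 that difference was 0.03, and with detected genes and plate in the fit it was 1.20.

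Tgfbr2 differed less between groups. It was detected in 24 of 46 PBS cells (52.2%, 36.9 to 67.1%), in 20 of 47 cells at 1 mg/kg (42.6%, 28.3 to 57.8%) and in 17 of 47 at 10 mg/kg (36.2%, 22.7 to 51.5%). Its difference from PBS was -0.48 at 10 mg/kg, positive on plate 2 (-0.80, 0.13 and -0.78), and -0.36 at 1 mg/kg (-1.03, 0.31 and -0.41). By mean FPKM the order was reversed, at 33.5 for 10 mg/kg and 21 for PBS, with 6 cells of 10 mg/kg and 1 PBS cell at 100 or more. Both TGF-β receptor chains were detected in 17 PBS cells, 18 cells of 1 mg/kg and 9 of 10 mg/kg. Over all 140 cells, Tgfbr2 was detected in 73.3% of the 60 cells with Tgfbr1 and in 21.3% of the 80 without it.

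Il10ra (chr9:45253837-45269149, minus strand) was lower at 10 mg/kg than in PBS on every plate. Its lowest, median and highest FPKM were 0, 1.49 and 1535 in PBS, 0, 0.32 and 484 at 1 mg/kg, and 0, 0.33 and 262 at 10 mg/kg. It was detected in 25 of 46 PBS cells (54.3%, 39 to 69.1%), in 17 of 47 cells at 1 mg/kg (36.2%, 22.7 to 51.5%) and in 13 of 47 at 10 mg/kg (27.7%, 15.6 to 42.6%). At an FPKM of 10 or more stood 17 PBS cells, 13 cells of 1 mg/kg and 6 of 10 mg/kg. The mean log2 level was 1.31 ± 2.14 at 10 mg/kg, against 2.98 ± 3.28 in PBS, a difference of -1.67 (-1.20, -2.12 and -1.62), or -0.88 with detected genes and plate in the fit. By bands of detected genes, the level was 2.98 in 7 cells of 10 mg/kg with 4000 genes or more, against 5.58 in 14 PBS cells. With 2000 to 4000 genes it was 1.62 at 10 mg/kg, against 1.78 in PBS. At 1 mg/kg the difference from PBS, -0.80, was -2.48 on plate 2 and 0.64 on plate 3, and it was 0.07 without plate 2. Il10ra overlaps the pseudogene Gm20612 and the miRNA gene Mir7086, detected in 1 and 8 cells. The partner chain Il10rb differed from PBS by -0.20 at 10 mg/kg, and both chains were detected in 17 PBS cells, 10 cells of 1 mg/kg and 6 of 10 mg/kg.

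Ifngr1 (chr10:19591949-19610229, plus strand) was lower in mean log2 level at both doses than in PBS, on every plate. Its lowest, median and highest FPKM were 0, 3.24 and 1478 in PBS, 0, 0.68 and 347 at 1 mg/kg, and 0, 0.75 and 1322 at 10 mg/kg. It was detected in 27 of 46 PBS cells (58.7%, 43.2 to 73.0%), in 18 of 47 cells at 1 mg/kg (38.3%, 24.5 to 53.6%) and in 23 of 47 at 10 mg/kg (48.9%, 34.1 to 63.9%). On plate 1 the share ran the other way, at 73.3% for 10 mg/kg, against 50% for PBS. The median of detecting cells was 164 in PBS, 107 at 1 mg/kg and 13 at 10 mg/kg. The low value came from plate 1, since by plate it was 3.88, 120 and 122 at 10 mg/kg, against 161, 184 and 109 in PBS. Of the 23 detecting cells at 10 mg/kg, 10 lay below an FPKM of 10, 7 of them on plate 1, and 10 were at 100 or more. The mean log2 level was 2.58 ± 3.10 at 10 mg/kg, against 3.84 ± 3.63 in PBS, a difference of -1.26 (-0.76, -1.64 and -1.38). At 1 mg/kg it was 2.50 ± 3.12, a difference from PBS of -1.34 (-1.78, -1.24 and -1.07). With detected genes and plate in the fit these were -0.52 and -0.90. In cells with 4000 genes or more the level was 6.50 in PBS, 4.66 at 1 mg/kg and 2.91 at 10 mg/kg. With 2000 to 4000 genes it was 3.04 at 10 mg/kg, against 2.68 in PBS, so the sign was not the same in each band. Ifngr2, the signalling chain, was at 1.99 in PBS, 2.13 at 1 mg/kg and 2.14 at 10 mg/kg.

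Neither TNF receptor met the limit set below. Tnfrsf1a was detected in 20 of 46 PBS cells (43.5%, 28.9 to 58.9%) and in 13 of 47 cells at each dose (27.7%, 15.6 to 42.6%). Its difference from PBS was -0.99 at 10 mg/kg (-0.79, -1.12 and -0.98) and -0.70 at 1 mg/kg (-0.20, -0.96 and -0.84), negative on every plate, but -0.23 at each dose with detected genes and plate in the fit. Tnfrsf1b was detected in 17 of 46 PBS cells (37%, 23.2 to 52.5%), in 14 of 47 cells at 1 mg/kg (29.8%, 17.3 to 44.9%) and in 10 of 47 at 10 mg/kg (21.3%, 10.7 to 35.7%). Its differences from PBS, -0.36 at 10 mg/kg and -0.06 at 1 mg/kg, were positive on plate 2 (0.39 and 0.70). Both were detected in 26 cells, 11 in PBS, 9 at 1 mg/kg and 6 at 10 mg/kg.

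The receptors were set beside the 4806 genes detected in at least 25% of the cells of any group. A difference of 1 or more on the log2 scale, with the same sign on all 3 plates, was counted as past the limit. Between 10 mg/kg and PBS, 3 of the 10 receptors (Csf2ra, Il10ra and Ifngr1) were lower past the limit, as were 13.4% of all genes. None was higher, and 0.0624% of all genes were. Between 1 mg/kg and PBS, 1 receptor (Ifngr1) was lower, as were 4.93% of all genes, and none was higher, as were 0.52% of all genes. Between 10 mg/kg and 1 mg/kg, 2 receptors (Csf2ra and Tgfbr1) were lower, as were 5.66% of all genes, and none was higher, as were 0.479%. Read against these shares, the counts are not a result particular to the receptors.

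As a list, the receptors had a median difference of -0.90 between 10 mg/kg and PBS, compared with -0.43 for all genes, and 9 of 10 were lower, compared with 81.4% of all genes. Between 1 mg/kg and PBS the median was -0.52, compared with -0.18, and 9 of 10 were lower, compared with 64.7%. The plate medians of that comparison were -0.99, 0.21 and -0.35, so it rested on plates 1 and 3. Between the doses the median was -0.30, compared with -0.24. With detected genes and plate in the fit the 3 medians were -0.14 (10 mg/kg against PBS), -0.13 (1 mg/kg against PBS) and -0.015 (10 mg/kg against 1 mg/kg), compared with -0.05, 0.05 and -0.10 for all genes. Csf1r was then at 0.99 between 10 mg/kg and PBS, above every other receptor, and Csf2ra at -1.37, below every other.

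**Figure D4:**
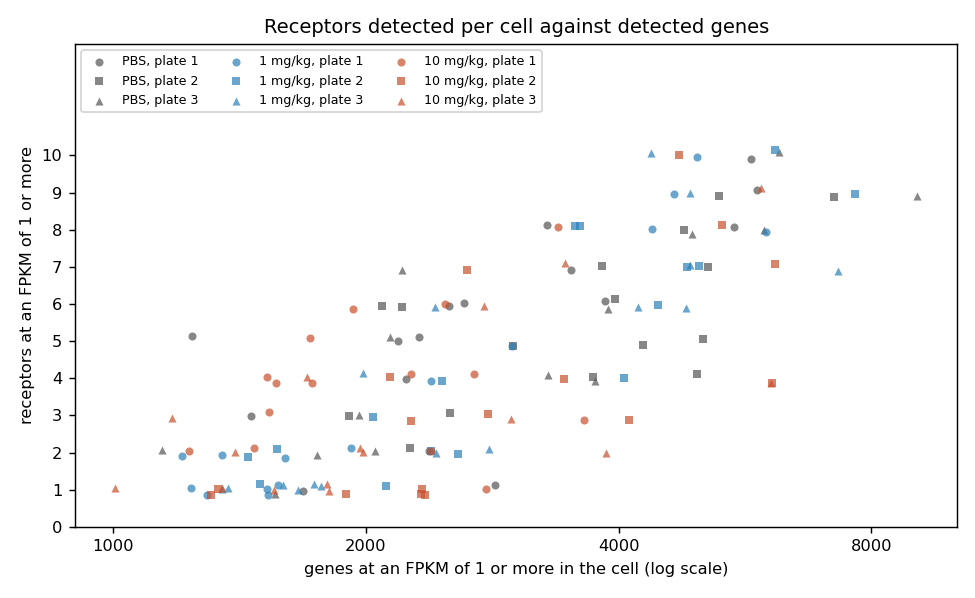
Each point is a cell: the number of the 10 receptors at an FPKM of 1 or more (vertical axis, slightly jittered) against the number of genes detected in the cell (log scale), coloured by group with plates by marker shape. Cells with more detected genes held more receptors in each group, and few cells of 10 mg/kg reached 8 or more.

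A PBS cell held a median of 5 of the 10 receptors, and a cell of 1 mg/kg or of 10 mg/kg a median of 3. Csf1r and no other receptor was detected in 3 PBS cells, 13 cells of 1 mg/kg and 12 of 10 mg/kg. At least 8 receptors were detected in 11 PBS cells, 10 cells of 1 mg/kg and 4 of 10 mg/kg. All 10 were detected in 2 PBS cells, 3 cells of 1 mg/kg and 1 of 10 mg/kg. The number of receptors followed the number of detected genes, with a Spearman correlation over cells of 0.74 in PBS, 0.86 at 1 mg/kg and 0.52 at 10 mg/kg. The cells of a group share their plates and preparation, so these correlations are descriptions. Among cells with 4000 genes or more the median was 8 receptors in PBS, 7.5 at 1 mg/kg and 7 at 10 mg/kg. With 2000 to 4000 genes it was 5 in PBS, 3.5 at 1 mg/kg and 3 at 10 mg/kg, and with 1000 to 2000 genes it was 2.5, 1 and 2 in the same order.

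All 45 pairs of receptors were positively correlated over the 140 cells in log2(FPKM + 1), with a median Pearson correlation of 0.33 and a range of 0.09 to 0.57. With group, plate and detected genes removed the median was 0.17, and 5 pairs were above 0.3. Il10ra and Ifngr1 came first at 0.46, with 0.56, 0.44 and 0.39 on plates 1, 2 and 3. Ifngr1 was detected in 74.5% of the 55 cells with Il10ra and in 31.8% of the 85 without. The other 4 pairs were Ifngr1 with Tnfrsf1b (0.38), Csf2ra with Csf3r (0.37), Tnfrsf1a with Tnfrsf1b (0.36) and Csf3r with Tnfrsf1a (0.34). Csf2ra with Csf3r ranged from 0.18 to 0.59 over plates, and Tnfrsf1a with Tnfrsf1b from -0.02 to 0.57. By group, Csf2ra with Csf3r was at 0.26 in PBS, 0.16 at 1 mg/kg and 0.78 at 10 mg/kg. Csf3r with Tnfrsf1a was at 0.49, 0.07 and 0.40 in the same order. The 3 cells rich in neutrophil markers are among the 140, and no pair was computed without them. Over all 140 cells, the subunits of known complexes stood lower than these 5 pairs. Tgfbr1 with Tgfbr2 was at 0.30, Il10ra with Il10rb at 0.25, Ifngr1 with Ifngr2 at 0.15, and Csf2ra with Csf2rb at 0.09. That order did not hold within each group. In PBS, Il10ra with Il10rb was at 0.53, above all 5 pairs, of which Csf3r with Tnfrsf1a was highest at 0.49. At 1 mg/kg, Tgfbr1 with Tgfbr2 was at 0.50, below Il10ra with Ifngr1 (0.61) and above the rest of the 5. At 10 mg/kg, the subunit pairs were all below the 5.

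**Figure D5:**
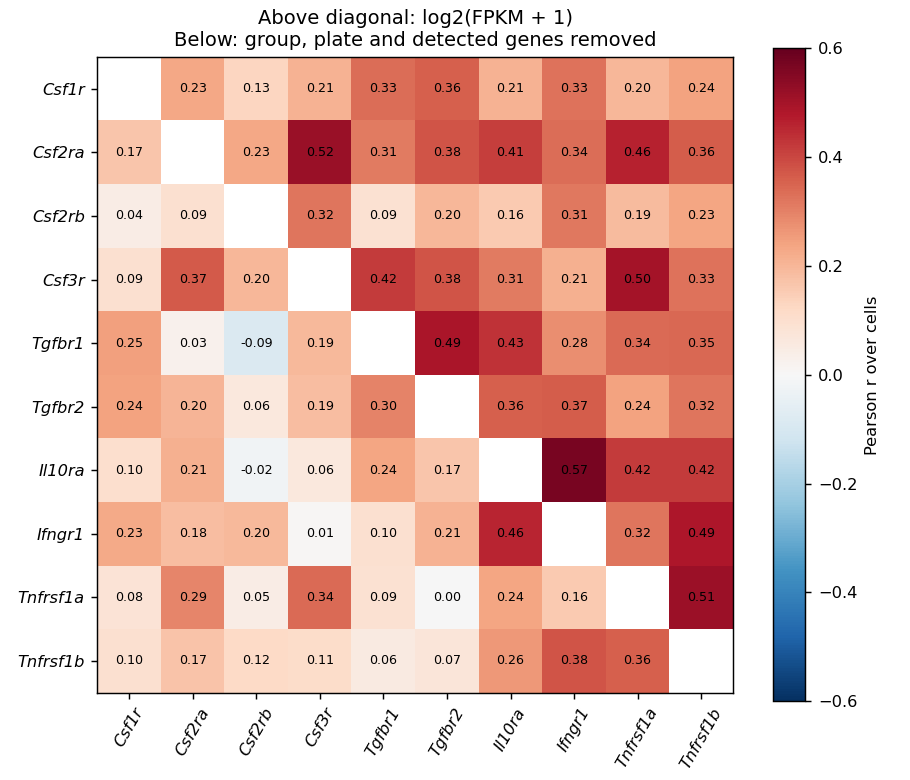
Pearson correlations over 140 cells for each pair of receptors, in log2(FPKM + 1) above the diagonal and with group, plate and detected genes removed below it. Most values shrink below the diagonal, and Il10ra with Ifngr1 stays highest at 0.46.

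The genes most like each receptor over the 140 cells were sought among 2231 genes by the same correlation with group, plate and detected genes removed. For Csf1r they were Olfml3 (0.51), a secreted protein enriched in microglia, the MHC class I gene H2-D1 (0.50) and the NADPH oxidase subunit Cyba (0.49). For Csf2ra they were Rhog (0.45), a small GTPase, Tpd52 (0.44) and Pilrb1 (0.42), and for Csf3r they were S100a8 (0.39), the adhesion molecule Icam1 (0.38) and the survival factor Mcl1 (0.38). For Tgfbr1 they were the cytokine gene Il1a (0.45), the stress-response phosphatase subunit Ppp1r15a (0.39) and Cd83 (0.38), and for Tgfbr2 the peptide-loading factor Tapbp (0.40), the chaperone Hspa5 (0.38) and the transporter Slco2b1 (0.38). Nfkbiz, a nuclear regulator of NF-κB target genes, was among the 3 nearest for Il10ra (0.46), Tnfrsf1a (0.46) and Tnfrsf1b (0.49). Il10ra and Ifngr1 were each other's nearest gene, followed by Nfkbiz and Junb (0.45) for Il10ra and by Irf5 (0.44) and Pltp (0.43) for Ifngr1. For Tnfrsf1a the others were Ccnl1 (0.44) and Mcl1 (0.41), and for Tnfrsf1b the glucocorticoid-induced Tsc22d3 (0.53) and the AP-1 subunit Fosb (0.49). Csf2rb was detected in fewer than 25% of cells and was not ranked.

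The ligands were mostly not detected in these cells. Csf2, Csf3, Il3, Il5, Il10 and Ifng were listed at 0 in all 140 cells, and 0 of 140, taken as fewer than 3 cells, allows a share of detecting cells of up to 2.14%. Csf1 was detected in 17 cells and Il34 in 1, Tgfb1 in 11, and Tnf in 91. Tnf stood at 2.74 at 10 mg/kg, against 4.13 in PBS, a difference of -1.39 that was -0.02 with detected genes and plate in the fit.

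Several signalling genes of the same pathways were lower at 10 mg/kg than in PBS past the limit, and none was higher. Their values are given as mean log2(FPKM + 1) at 10 mg/kg, against that in PBS. Over all genes compared, 13.4% were lower past the limit, and no count that follows is read as particular to its list. Of 17 genes of the CSF1 receptor pathway beside Csf1r, 11 were among the genes compared and 4 were lower, among them Spi1, which encodes PU.1 (4.06 against 5.61, difference -1.55), the phosphatase Ptpn6 (3.58 against 4.77, -1.19), and the kinase Mapk3 (1.41 against 2.81, -1.40). Tyrobp was at 11.7 against 11.1. Of 16 genes of the GM-CSF and G-CSF list beside its 3 receptors, 3 were compared and 1 was lower, the feedback inhibitor Socs3 (2.20 against 3.26, -1.07). Socs3 was also the only one lower of 9 in the IL-10 list beside Il10ra, of which 4 were compared. In the TGF-β list of 20 genes 4 were compared and 1 was lower, Nrros, which holds latent TGF-β on microglia (1.55 against 2.57, -1.02).

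In the interferon gamma list of 11 genes 5 were compared and 2 were lower at 10 mg/kg than in PBS, the transcription factors Irf1 (0.50 against 1.89, -1.40) and Irf8 (3.28 against 4.57, -1.29). Jak1 was at 2.13 against 1.38. In the TNF list of 18 genes 6 were compared and 2 were lower, Tnf and the inhibitor of NF-κB Nfkbia (4.23 against 6.24, -2.01). Of 31 other cytokine receptors 8 were compared and 2 were lower, the interferon receptor chain Ifnar2 (1.25 against 3.07, -1.82) and the IL-21 receptor Il21r (0.84 against 1.93, -1.09). With detected genes and plate in the fit, Ifnar2 was at -1.07, Spi1 at -0.91, Mapk3 at -0.88 and Irf1 at -0.85, while Nrros, Ptpn6 and Socs3 lay between -0.21 and 0.08. At 1 mg/kg against PBS, genes lower past the limit in these lists, receptors left out, included Nfkbia (-1.15) and Tnfrsf13b (-1.02), and none was higher.

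Some cells also carried transcripts of other retinal cells. At least 3 rod photoreceptor markers were present in 5 PBS cells, 6 cells of 1 mg/kg and 9 of 10 mg/kg. The summed FPKM of these markers ran from 0 to 346 in PBS, from 0 to 5186 at 1 mg/kg and from 0 to 17112 at 10 mg/kg. Without the cells with at least 3 of them, the difference between 10 mg/kg and PBS was -2.28 for Csf2ra, -1.85 for Il10ra and -1.48 for Ifngr1, each larger in size than with them. At least 3 markers of border macrophages, which live at the vessels and membranes of the tissue, were present in 3 PBS cells, 4 cells of 1 mg/kg and 3 of 10 mg/kg. Ifngr1 was detected in all 10 of those cells and in 58 of the other 130. The median number of detected genes was 4034.5 in those 10 cells and 2385.5 in the other 130, and its part in this contrast was not tested.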

How the data were processed

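The authors deposited FPKM values for 55364 genes in 144 sorted cells, with gene lengths, and 0 columns of other samples. The tools named, per the submitters' processing notes, were STAR 2.7.2b, featureCounts 1.6.1, cutadapt 1.16, Trim Galore 0.4.4 and Trimmomatic 0.36, with GRCm38.p6 (mm10); settings and strandedness are not given in the sources used here. Reads were inferred from FPKM times length, with the most frequent value above 0 in a cell taken as 1 read. This gave whole reads within 0.01 for a median of 53.0% of values above 0 per kept cell, so no count model was used. Read numbers are thus estimates. Levels were means of log2(FPKM + 1), so fold changes of rarely detected genes are understated. The 10 receptors, the 7 pathway lists, the marker lists and the rules, including the 3 nearest genes named for each receptor, were chosen with earlier results of these data known. Marker and pathway genes were named by list. Some genes of these lists are counted but not reported here by name. The linear fit had group, plate and log2 of detected genes. Calculations were tested on simulated data. The highest correlation between cells was 0.68, so no cell's values were a copy of another's. Python 3.11.15, numpy 2.4.6, pandas 2.3.3, scipy 1.17.1 and matplotlib 3.10.9 were used.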

Additional observations from a re-analysis of the deposited data

How the results depend on the processing

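No paired analysis was possible because each group counts as 1 sample, so no test, paired or not, was made. All groups were on each plate, and the mean of the within-plate differences gave medians of -0.55 for 1 mg/kg against PBS, -0.89 for 10 mg/kg against PBS and -0.30 for 10 mg/kg against 1 mg/kg. The values here are medians over the 10 receptors, on the log2 scale. Between 10 mg/kg and PBS the median was -0.90. It was -0.78 in cells with at least 2000 genes, -1.04 without cells with 3 or more neutrophil or border macrophage markers, -1.41 with a pseudocount of 0.1, -0.36 with a pseudocount of 10, -0.52 as the log2 ratio of mean FPKM and -0.14 with detected genes and plate in a fit. Between 1 mg/kg and PBS it was -0.52, and 0.27 in cells with at least 2000 genes, where 6 of 10 receptors were higher. Leaving out a plate gave -0.63 to -0.08 for 1 mg/kg against PBS, -0.95 to -0.87 for 10 mg/kg against PBS and -0.33 to -0.29 for 10 mg/kg against 1 mg/kg.

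Between 10 mg/kg and 1 mg/kg the median was -0.30. It was -0.72 in cells with at least 2000 genes, -0.11 without cells with 3 or more rod markers, -0.45 without cells with 3 or more neutrophil or border macrophage markers, -0.22 without the 3 cells rich in neutrophil markers, -0.42 and -0.13 with pseudocounts of 0.1 and 10, -0.037 as the ratio of means and -0.015 in the fit. The median correlation of receptor pairs, 0.33, was 0.17 with group, plate and detected genes removed. The causes were not tested, except that a larger pseudocount shrinks differences by construction. No log2 difference of a receptor past the limit changed sign under any of the 13 alternatives. Part of this was fixed in advance, as the limit itself asks for the same sign on all 3 plates. The mean of the within-plate differences could thus not change sign, and leaving out a plate hardly could. The shares of detecting cells depended on the limit for detection: at any FPKM above 0, 27 of the 30 shares moved out of their intervals. The Ifngr1 share was then 80.9% at 10 mg/kg, against 80.4% in PBS, and the Csf2ra share was 69.6% in PBS, 70.2% at 1 mg/kg and 61.7% at 10 mg/kg. Csf2ra between 10 mg/kg and PBS stayed between -2.68 and -1.13, and Il10ra between -2.41 and -0.88. Ifngr1 between 1 mg/kg and PBS was -0.53 in cells with at least 2000 genes. The alternative without the 3 cells, that of leaving plates out of the Csf1r bands and the bands of detected genes were chosen after seeing the data. Reads are amplified copies, so depth limits what an FPKM near 1 can show.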
